A study of Mus musculus with 6 samples.

Results

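The SOXF and ETS factors are among the transcription factors known to drive endothelial genes, and their RNA was followed here in liver endothelial cells (ECs) of young and aged mice. The group is set by gene name, by a rule that uses no measured value, as 9 genes: the 3 SOXF genes Sox7, Sox17 and Sox18 and the 6 ETS genes Erg, Fli1, Ets1, Ets2, Elk3 and Etv6. The choice was made with earlier results of these data known. All 9 were among the 24421 gene symbols counted, and all 9 were among the 14612 genes that passed the filter on low counts, in which 1 or more samples had to reach a CPM of 0.5. CPM is a count scaled to the size of its library, here with edgeR's TMM factors, and FPKM, the authors' unit, is scaled by transcript length as well. Bulk RNA-seq was available for 6 samples of wild-type (WT) C57BL/6J mouse liver, 3 from mice of 10 weeks (young) and 1 each from mice of 127, 131 and 136 weeks (aged). The cells were sorted as CD31+CD45-, a gate that collects ECs of every vessel type, and the study used females only and left out animals with visible tumors or an enlarged liver or spleen. No treatment or genetic change was applied, and whether a sample came from 1 mouse or a pool is not given in the sources used here, so the p-values measure the spread between these samples.

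SOXF proteins carry an HMG box, a domain that binds and bends DNA, and they act early in vessel development, in arterial identity and, for SOX18, in the first steps of lymphatic vessel formation. ETS proteins bind DNA sites built around a GGAA core. ERG and FLI1 are close relatives that hold mature ECs in their differentiated state and restrain inflammatory genes, ETS1 and ETS2 are activators tied to growth factor signaling and the ERK kinases, and ELK3 and ETV6 act mainly as repressors. Many enhancers of endothelial genes hold SOX and ETS sites side by side.

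The RNA of the 9 genes did not shift in one direction with age. Sox7 was 2.11-fold higher and Sox17 1.38-fold higher in aged ECs, Ets1 was 1.40-fold lower, and for these 3 genes the young and aged samples did not overlap. The other 6 genes, among them the endothelial factors Erg, Fli1 and Sox18, overlapped between the ages. With edgeR's quasi-likelihood test and Benjamini-Hochberg adjustment, 0 of the 9 genes passed an adjusted p of 0.05, as did 0% of all genes tested. At an unadjusted p below 0.05, 2 genes were higher (Sox7 and Sox17) and 1 was lower (Ets1), beside 8.32% and 4.32% of all genes tested in the same directions. All aged samples lay above all young samples in 2 of the 9 genes and below them in 1, beside 9.62% and 8.33% of all genes tested. DESeq2, which estimates the spread differently, called 1 of the 9 genes (Sox7, adjusted p = 0.00898), beside 3.30% of its tested genes called higher and 1.03% called lower, while limma-voom and limma on FPKM called 0.

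Some facts of the libraries touch every value. The count totals ran from 23001556 to 31651817, and the 9 genes had between 769 and 30435 counts in a sample, far above the 0.0948 to 0.130 CPM that 3 counts are worth. Young replicate 3 and the 127-week sample stood apart: Lars2 and Rn45s together, a pair of symbols that catch ribosomal RNA reads, took 1.29% and 0.960% of their counts, against 4.68% to 5.53% in the other 4 samples. Each age had a sample of this kind, so differences are also given within the pair (1 young and 1 aged sample) and within the other 4 samples (2 and 2), as descriptions with no test. Endothelial markers were high in all 6 samples. Pecam1, which encodes the CD31 used in the sort, had 451.7 ± 44.7 FPKM in young and 454.2 ± 45.3 FPKM in aged ECs (mean ± SD, n = 3 each), and Ptprc, which encodes the CD45 that the sort selects against, had 0.282 ± 0.0617 and 2.19 ± 2.39 FPKM. Sinusoidal markers were lower in the aged samples, with 8 of 9 lower and a summed level of 18847 to 19729 CPM in young and 6559 to 12763 CPM in aged samples. At an unadjusted p below 0.05, 7 of the 9 were lower, beside 4.32% of all genes tested. In bulk samples fewer cells of a type and less RNA per cell cannot be told apart.

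Sox7 showed the largest difference of the 9 genes. It lies on chromosome 14 (mm9, 64562511 to 64569569, plus strand) and encodes the SOXF factor known for hemogenic endothelium and vessel growth. Sox7 stood at 164, 192 and 177 CPM in young replicates 1 to 3 and at 265, 335 and 526 CPM in the 127-, 131- and 136-week samples. The young samples lay close together, the aged samples spread widely, and the lowest aged sample was above the highest young one. The log2 fold change was 1.08 (SE 0.26, 95% interval 0.47 to 1.68, edgeR adjusted p = 0.235), larger in size than those of 87.3% of the genes tested. Aged exceeded young by 0.58 on the log2(CPM + 1) scale within the pair poor in Lars2 and Rn45s and by 1.24 within the other 4 samples. Without the 136-week sample the log2 fold change of Sox7 was 0.76 (adjusted p = 0.351).

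Sox17 differed less, with a smaller spread. This gene, on chromosome 1 (4481009 to 4486494, minus strand), encodes the SOXF factor most tied to arterial ECs. Sox17 had 89.3, 80.2 and 102.0 CPM in the young samples and 116.1, 116.6 and 141.8 CPM at 127, 131 and 136 weeks. The 127- and 131-week samples were nearly equal and only just above young replicate 3, and the oldest sample was highest. The log2 fold change was 0.46 (SE 0.16, 95% interval 0.10 to 0.83, edgeR adjusted p = 0.324). Without the 136-week sample, young replicate 1 or young replicate 2 its unadjusted p was above 0.05, with log2 fold changes of 0.36, 0.46 and 0.38. The difference was 0.19 on the log2(CPM + 1) scale within the pair and 0.60 within the other 4 samples.

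Sox18 showed no difference of this kind. Mutations of this gene, on chromosome 2 (181404541 to 181406345, minus strand), are known to disturb lymphatic vessels, hair and vascular integrity. Sox18 had 245.5, 281.2 and 229.3 CPM in the young samples and 329.7, 220.2 and 214.3 CPM in the 127-, 131- and 136-week samples. The 127-week sample was the highest of all 6, and the other aged samples were the lowest, below every young sample. The log2 fold change was 0.016 (SE 0.21, 95% interval -0.47 to 0.50, edgeR adjusted p = 0.986), an interval that leaves room for a difference of up to about the size seen for Sox17 in either direction. Within the pair the aged sample was higher by 0.52 on the log2(CPM + 1) scale, while within the other 4 samples the difference was -0.27.

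**Figure D1:**
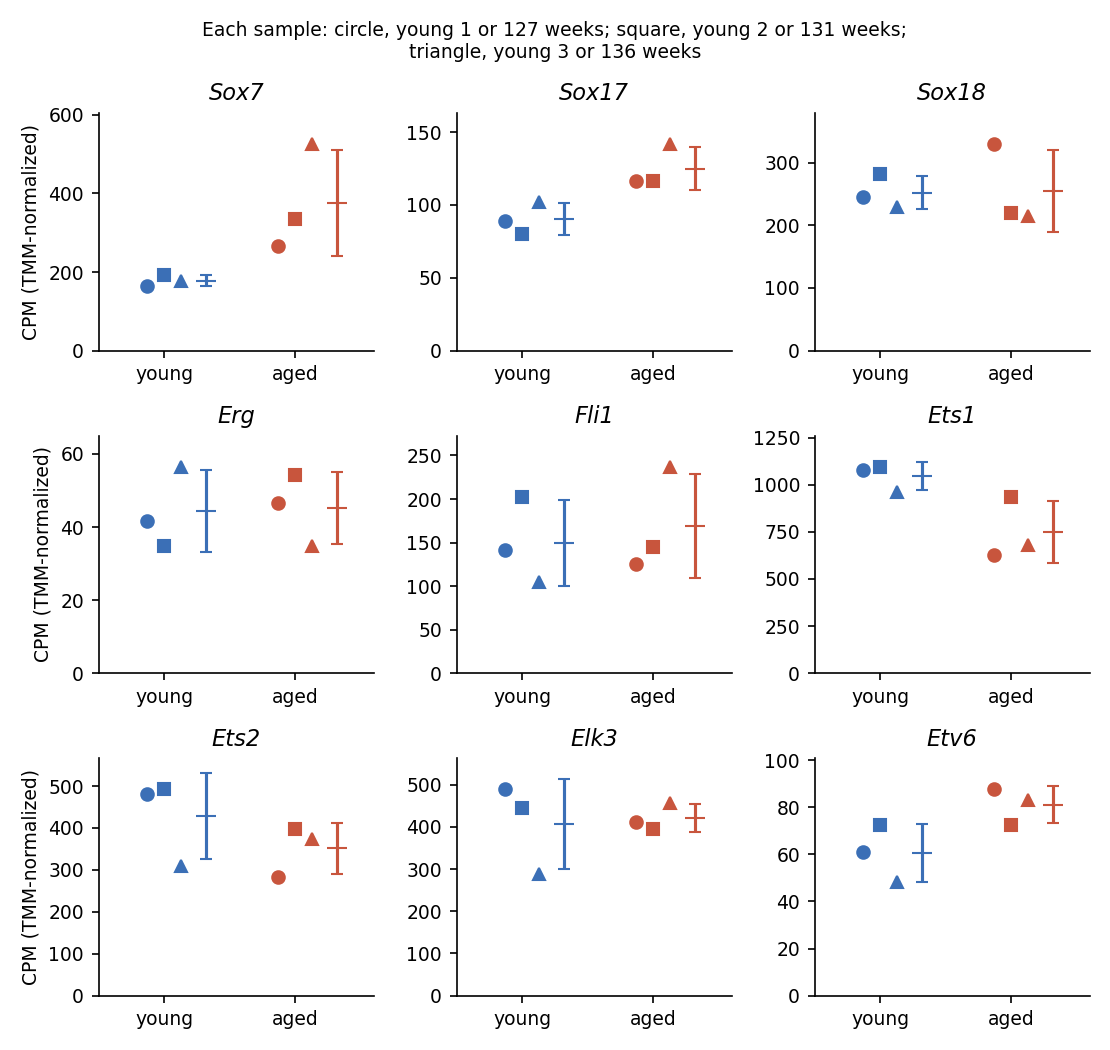
TMM-normalized CPM of each of the 9 genes (vertical axis from 0, its own scale in each panel) in the 3 young and 3 aged samples, with the mean and SD beside the points. Sox7 and Sox17 have all aged points above all young points, Ets1 has all aged points below, and in the other panels the ages overlap.

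Because FPKM is per length, the 3 SOXF genes can be set beside each other on that scale. Summed over the 3 genes, the deposited FPKM came to 256 ± 17.1 (SD, n = 3) in young and 329 ± 35.1 in aged ECs, with ranges of 245 to 276 and 288 to 351 that did not overlap. Sox18 gave 67.6% ± 2.4 of the sum in young ECs and 53.1% ± 12.2 in aged ECs, and Sox7 gave 21.9% ± 1.0 and 35.8% ± 11.3. Sox17 stayed the smallest part, with 10.5% ± 1.9 and 11.2% ± 1.0. The ratio of Sox7 to Sox18 FPKM was 0.307, 0.315 and 0.354 in the young samples and 0.368, 0.699 and 1.13 at 127, 131 and 136 weeks, so the ages did not overlap and Sox7 exceeded Sox18 in the 136-week sample. The 127-week sample was only just outside the young range. The ratio of Sox17 to Sox18 overlapped between the ages, with 0.156 ± 0.0330 and 0.221 ± 0.0671, and so did the ratio of Sox7 to Sox17.

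**Figure D2:**
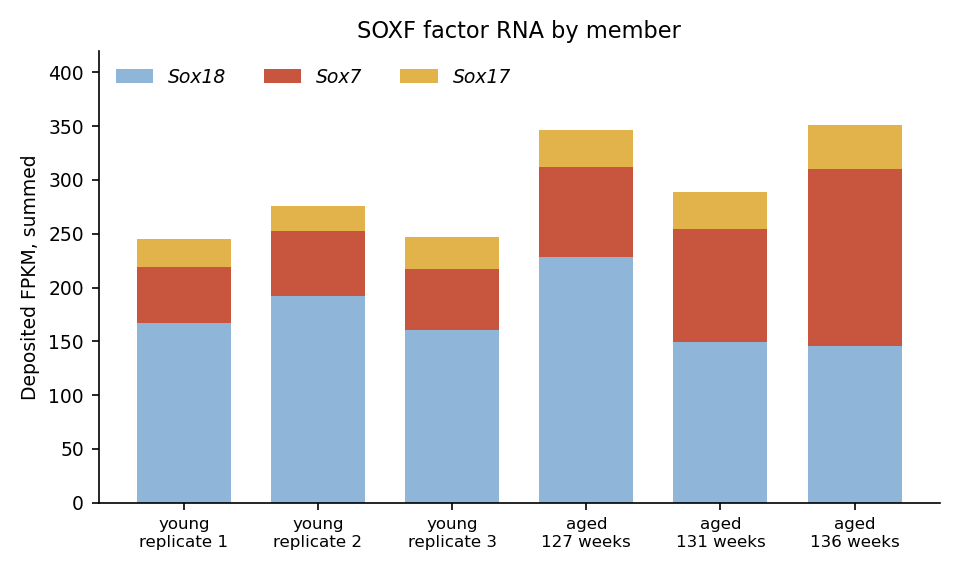
Deposited FPKM of Sox18, Sox7 and Sox17 stacked for each sample (vertical axis from 0, bars are single samples). The aged bars are taller than the young bars, and the Sox7 section covers 51.3 to 60.4 FPKM in young samples and 84.1, 105 and 164 FPKM in the aged ones.

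Among the ETS genes, Ets1 was the one that differed beyond the overlap of the samples. It lies on chromosome 9 (32443806 to 32565405, plus strand) and was the most abundant of the 9 genes in young ECs. Ets1 had 1079, 1096 and 960 CPM in young replicates 1 to 3 and 627, 936 and 682 CPM at 127, 131 and 136 weeks. The 131-week sample came close to young replicate 3, and the other aged samples lay well below. The log2 fold change was -0.48 (SE 0.20, 95% interval -0.95 to -0.01, edgeR adjusted p = 0.385). Leaving out any single sample other than the 131-week one took the unadjusted p of Ets1 above 0.05. Aged was lower within the pair, by -0.61 on the log2(CPM + 1) scale, and within the other 4 samples, by -0.44. The 131-week sample, the aged sample with the most Ets1, was also the one with the highest summed sinusoidal markers (12763 CPM, the upper end of the aged range).

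Ets2, the close relative of Ets1, lies on chromosome 16 (95923682 to 95942658, plus strand). Ets2 had 481, 493 and 310 CPM in the young samples and 282, 398 and 373 CPM in the 127-, 131- and 136-week samples. Young replicate 3 lay within the aged range, and the pair poor in Lars2 and Rn45s held the lowest sample of each age. The log2 fold change of Ets2 was -0.29 (SE 0.23, 95% interval -0.83 to 0.26, edgeR adjusted p = 0.677).

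Erg, on chromosome 16 (95580776 to 95808200, minus strand), encodes the ETS factor most used as a nuclear marker of ECs. Erg had 41.8, 34.7 and 56.6 CPM in the young samples and 46.6, 54.2 and 34.8 CPM in the aged samples. The 2 ages covered almost the same range, and the log2 fold change was 0.03 (SE 0.24, 95% interval -0.52 to 0.58, edgeR adjusted p = 0.980). Fli1, its closest relative and also a factor of blood cells, lies on chromosome 9 (32229793 to 32348974, minus strand). Fli1 had 142, 203 and 105 CPM in the young samples and 125, 145 and 237 CPM in the 127-, 131- and 136-week samples. The values spread about as widely within each age as between them, with a log2 fold change of 0.17 (SE 0.32, 95% interval -0.57 to 0.91, edgeR adjusted p = 0.883). The highest sample for Fli1, at 136 weeks, was also the one with the highest summed pan-leukocyte markers (240.9 CPM, against 21.3 to 32.9 CPM in young samples). The next highest for Fli1, young replicate 2, had the lowest such sum of the young samples (21.3 CPM). With a term for these markers the log2 fold change of Fli1 was -0.13 (SE 0.36). The part of leukocytes in the Fli1 values was not tested.

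The genes Elk3 and Etv6 encode the repressors of the group. Elk3, on chromosome 10 (92710159 to 92773880, minus strand), had 490, 444 and 287 CPM in the young samples and 411, 395 and 458 CPM in the aged samples. The aged samples all lay inside the young range, with a log2 fold change of 0.05 (SE 0.22, 95% interval -0.47 to 0.56, edgeR adjusted p = 0.958). Of the exonic bases of Elk3, 316 (6.95%) overlap Cdk17 on the other strand, and since the strand setting of the counting is not given in the sources used here, some reads of the 2 genes may not be told apart. Etv6, on chromosome 6 (133985718 to 134220176, plus strand), encodes a repressor needed for yolk sac vessels and for blood stem cells. Etv6 had 60.9, 72.4 and 48.1 CPM in the young samples and 87.7, 72.3 and 83.1 CPM in the aged samples. The ages overlapped only through young replicate 2 and the 131-week sample, which were equal to within 0.1 CPM. The log2 fold change of Etv6 was 0.42 (SE 0.18, 95% interval -0.0026 to 0.85, edgeR adjusted p = 0.399), and aged exceeded young by 0.85 on the log2(CPM + 1) scale within the pair and by 0.22 within the other 4 samples.

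**Figure D3:**
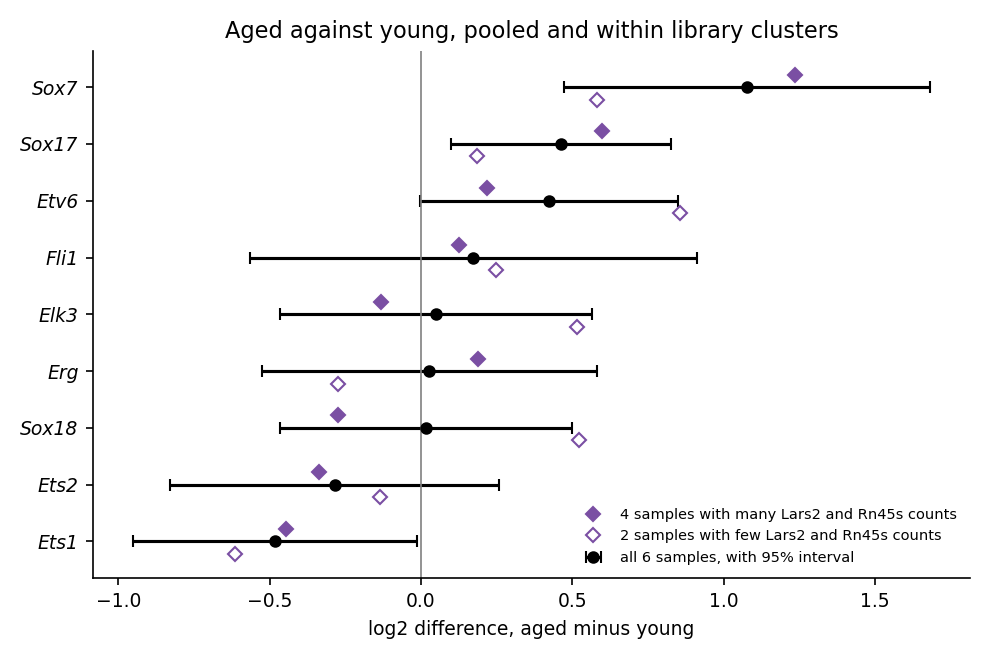
Difference of aged minus young for each gene (horizontal axis, log2). Black points and bars are the edgeR log2 fold change of all 6 samples and its 95% interval, and diamonds are differences on the log2(CPM + 1) scale within the 2 samples poor in Lars2 and Rn45s (open) and within the other 4 (filled). The intervals of Sox7, Sox17 and Ets1 do not reach 0, and for Sox18, Elk3 and Erg the diamonds lie on opposite sides of 0.

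Set beside each other by length, the 6 ETS genes summed to 503 ± 75.5 FPKM in young and 433 ± 49.5 FPKM in aged ECs (SD, n = 3 each), and these sums overlapped. Ets1 gave 41.8% ± 4.2 of the sum in young and 34.2% ± 4.9 in aged ECs, and Etv6 gave 2.13% ± 0.16 and 3.35% ± 0.71. The ratio of Etv6 to Ets1 FPKM was 0.0503, 0.0590 and 0.0443 in the young samples and 0.124, 0.0689 and 0.108 at 127, 131 and 136 weeks. The ages did not overlap in this ratio of a repressor to an activator. The ratios of Ets1 to Ets2, Ets1 to Erg and Fli1 to Erg overlapped between the ages.

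Over all 9 genes the order of the levels differed among the most abundant genes. In young ECs the mean FPKM ran down from Ets1 (208 ± 12.4) through Sox18 (173 ± 16.5), Ets2 (124 ± 28.3), Elk3 (97.8 ± 24.7), Sox7 (56.2 ± 4.56), Fli1 (48.3 ± 15.8) and Sox17 (26.7 ± 3.36) to Erg (14.5 ± 3.78) and Etv6 (10.7 ± 2.1). Neighbors in that order overlapped between samples for Ets2 and Elk3, for Sox7 and Fli1, and for Erg and Etv6. In aged ECs the order was Sox18 (175 ± 46.5), Ets1 (148 ± 32.1), Sox7 (118 ± 41.6), Ets2 (101 ± 16.9), Elk3 (101 ± 7.62), Fli1 (54.1 ± 19.2), Sox17 (36.6 ± 4.27), Erg (14.7 ± 3.14) and Etv6 (14.3 ± 1.40). There each of the first 5 genes overlapped its neighbor in the order, though every aged sample of Sox18 and of Ets1 lay above every aged sample of Ets2 and of Elk3, and Elk3 stood clear of Fli1 and Sox17 clear of Erg. Among all gene symbols by mean FPKM, Sox7 held rank 1682 in young and 774 in aged ECs, Sox17 held ranks 3206 and 2442, and Ets1 held ranks 435 and 616, whereas Erg held ranks 4979 and 4970.

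**Figure D4:**
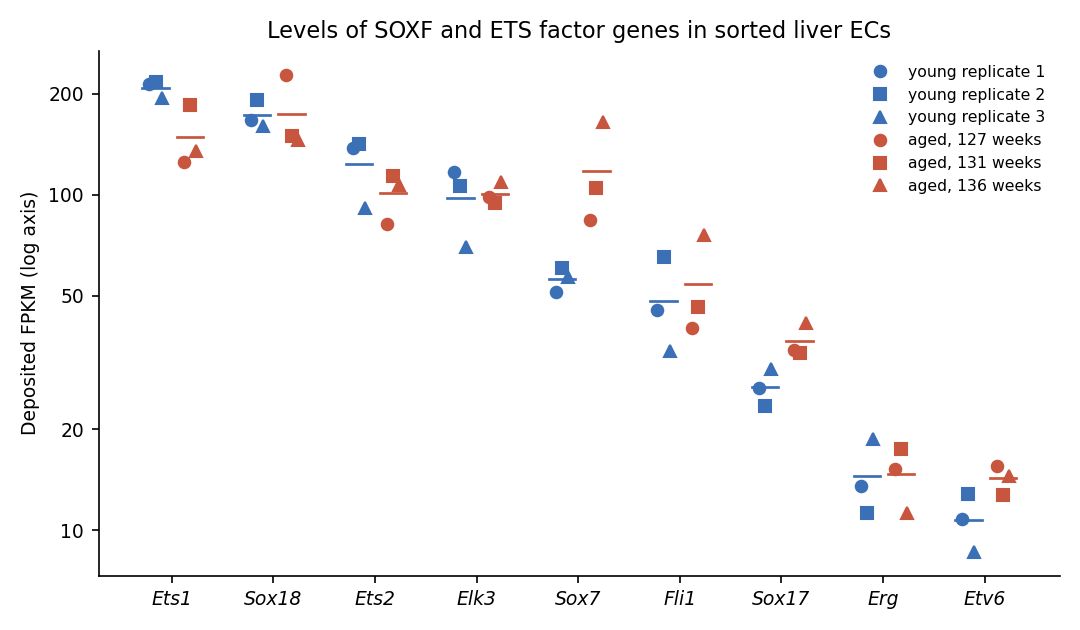
Deposited FPKM of the 9 genes (log axis) in each of the 6 samples, ordered by the young mean; short lines are the means of 3 samples. Ets1 is highest in young ECs, and Erg and Etv6 are lowest at both ages. The aged mean of Sox7 lies above those of Ets2 and Elk3 and below those of Sox18 and Ets1.

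Several of these genes are neighbors in the genome. Fli1 and Ets1 lie on chromosome 9 with 94831 bases between them (mm9), and Erg and Ets2 lie on chromosome 16 with 115481 bases between them. In each pair the genes point away from each other. The members of a pair did not share their values. Fli1 had a log2 fold change of 0.17 and Ets1 of -0.48, and Erg had 0.03 and Ets2 -0.29, so in each pair the gene of the ETS1 and ETS2 type had the lower value, with intervals that overlapped.

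The promoter windows below are given because the ETS core could be read in them. RefSeq windows (GRCm38.p6, 250 bases before to 50 after a start) were at hand for 4 of the 9 genes, Erg, Ets2, Elk3 and Etv6. Those of Etv6 and Ets2, the genes of these 4 with the highest and lowest log2 fold change, are printed with GGAA and its reverse complement TTCC in capitals. The Etv6 window lies at chr6:134035450-134035749 and the Ets2 window at chr16:95702157-95702456, both read on the plus strand.
Etv6: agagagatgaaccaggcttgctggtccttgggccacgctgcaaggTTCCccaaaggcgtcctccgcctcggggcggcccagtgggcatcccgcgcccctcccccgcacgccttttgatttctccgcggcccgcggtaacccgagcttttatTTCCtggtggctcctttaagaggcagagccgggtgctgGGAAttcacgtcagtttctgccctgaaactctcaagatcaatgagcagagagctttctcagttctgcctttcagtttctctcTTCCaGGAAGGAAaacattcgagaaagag
Ets2: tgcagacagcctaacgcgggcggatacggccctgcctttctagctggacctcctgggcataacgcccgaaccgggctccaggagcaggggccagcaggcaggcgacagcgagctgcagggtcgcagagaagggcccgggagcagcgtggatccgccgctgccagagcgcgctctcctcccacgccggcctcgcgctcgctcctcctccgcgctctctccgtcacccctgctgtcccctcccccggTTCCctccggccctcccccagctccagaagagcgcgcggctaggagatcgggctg
Counted on both strands, the Etv6 window holds the core 6 times and the Ets2 window holds it 1 time. Of the windows not printed, that of Elk3 holds it 2 times, and those of Erg hold it 1, 4 and 2 times. The printed windows were picked by log2 fold change, and a link between the number of cores and age was not tested. Of 32851 mouse windows of this length 96.0% hold GGAA at least once, with a median of 3, and 15.7% hold it 6 times or more. The letters ACAAT, the core bound by SOX proteins, are in neither printed window and in 31.0% of all windows. The Erg window at chr16:95459299-95459598 holds them 2 times. A match of these letters is a description and shows no binding.

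The wider SOX family was read in the same fit. Of 16 other SOX genes 8 could be tested, and all 8 had a positive log2 fold change under each of 4 scalings, with a median of 0.70 beside 0.0098 over all genes tested. None passed the adjusted p, and 3 were higher at an unadjusted p below 0.05, beside 8.32% of all genes tested. Most were low: Sox5, Sox6, Sox8, Sox9, Sox11 and Sox12 had young means of 0.483 to 3.88 CPM. On the log2(CPM + 1) scale, Sox6, Sox8 and Sox11 were negative within the pair poor in Lars2 and Rn45s (-0.22, -0.32 and -0.24). Within the other 4 samples Sox12 was negative (-0.25), and the rest were positive. Sox4, a SOXC factor of progenitor and activated cells, had 12.8 ± 2.53 FPKM in young and 26.3 ± 5.69 FPKM in aged ECs (log2 fold change 1.05, SE 0.22, edgeR adjusted p = 0.207), and all aged samples lay above the young ones. Sox13, a SOXD factor, had 8.97 ± 1.98 and 14.2 ± 2.16 FPKM (log2 fold change 0.67, SE 0.20). Sox9 was low, with 0.541 ± 0.179 and 1.70 ± 0.680 FPKM (log2 fold change 1.66, SE 0.44). Sox9 is also a gene of bile duct cells, and the summed cholangiocyte markers (Epcam, Krt19, Krt7 and Spp1) were 85.8 to 102 CPM in young and 181 to 228 CPM in aged samples. Most of each sum was Spp1 (84.8 ± 10.0 CPM in young and 179 ± 23.7 CPM in aged samples). Epcam, Krt19 and Krt7 each overlapped between the ages. The part of bile duct cells in the Sox9 value was not tested.

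The other ETS genes lay in both directions. Of 20 listed, 17 could be tested, with 11 higher and 6 lower at a median of 0.095 on the log2 scale, and with library totals alone as the scaling the split was 12 to 5. At an unadjusted p below 0.05, 1 of the 17 was higher and 2 were lower, beside 8.32% and 4.32% of all genes tested, and none passed the adjusted p. Etv1 and Etv5 belong to the PEA3 subfamily, which growth factor signaling through ERK induces. Etv1 had 3.54 ± 0.319 FPKM in young and 1.97 ± 0.579 FPKM in aged ECs (log2 fold change -0.85, SE 0.26), and Etv5 had 11.7 ± 1.58 and 7.87 ± 1.51 FPKM (log2 fold change -0.56, SE 0.20), with every aged sample of both below every young one. Erf, a repressor that ERK moves out of the nucleus, had 9.78 ± 0.504 and 16.4 ± 3.68 CPM (log2 fold change 0.74, SE 0.21, edgeR adjusted p = 0.265), with every aged sample above. The broadly expressed Elf1, the most abundant of this list, had 44.1 ± 6.14 and 44.0 ± 1.38 FPKM, and Elf2 had 19.7 ± 1.66 and 18.8 ± 2.43 FPKM. Spi1, the ETS factor of myeloid and B cells, had 1.24 ± 0.055 CPM in young and 4.07 ± 3.75 CPM in aged samples, in samples whose macrophage and neutrophil markers summed to 42.9 to 75.3 CPM and 30.1 to 476 CPM. Their part in that value was not tested.

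Known endothelial target genes of SOXF or ETS factors had more negative than positive values. Of 26 genes, all tested, 9 were higher and 17 lower (10 and 16 with library totals alone), and their median log2 fold change was -0.18, beside 0.0098 over all genes tested. None passed the adjusted p, and 0 were higher and 5 lower at an unadjusted p below 0.05, beside 8.32% and 4.32% of all genes tested. Robo4, a receptor that stabilizes vessels and whose promoter is a classic ETS target, had 271 ± 26.0 FPKM in young and 174 ± 11.8 FPKM in aged ECs (log2 fold change -0.63, SE 0.16, edgeR adjusted p = 0.243). Clec14a, an EC surface lectin, had 275 ± 29.2 and 188 ± 28.0 FPKM (log2 fold change -0.55), and Notch4, an endothelial Notch receptor, had 23.8 ± 5.39 and 15.9 ± 3.36 FPKM (log2 fold change -0.58). Kdr, the main VEGF receptor, had 640 ± 38.7 and 405 ± 124 FPKM (log2 fold change -0.65), and Esam, a junction protein, had 806 ± 175 and 544 ± 83.9 FPKM (log2 fold change -0.56). For these 5 genes every aged sample lay below every young one. Of all 26 targets, 7 lay below in this way and 1 above, beside 8.33% and 9.62% of all genes tested. Eng, the most abundant target, was among the 7, with 1498 ± 52.7 and 1183 ± 154 FPKM (log2 fold change -0.33, SE 0.20). The target above was Cd34 (log2 fold change 0.74, SE 0.32). Cdh5, which encodes VE-cadherin and is a target of ERG, overlapped between the ages (109 ± 15.6 and 93.8 ± 28.5 FPKM), as did Egfl7 (808 ± 225 and 708 ± 124 FPKM). Of the 26 targets 9 are also on the list of pan-endothelial markers, of which 7 of 10 were lower, with sums of 15619 to 17135 CPM in young and 11377 to 14523 CPM in aged samples. The part of the sinusoidal markers in these values was not tested.

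A short list held genes that ERG is known to hold down in resting ECs. All 3 listed genes had positive log2 fold changes, with a median of 1.21, 2 were higher at an unadjusted p below 0.05, beside 8.32% of all genes tested, and 0 passed the adjusted p in edgeR. Icam1, a leukocyte adhesion molecule, had 173, 248 and 284 FPKM in young and 621, 514 and 941 FPKM in aged samples (log2 fold change 1.56, SE 0.29, edgeR adjusted p = 0.193). Vcam1, which does the same work, had 251, 284 and 264 FPKM and 485, 569 and 784 FPKM (log2 fold change 1.21, SE 0.22, edgeR adjusted p = 0.193). In both genes all aged samples lay above all young ones, as in Sox7. Birc3, an inhibitor of cell death, overlapped between the ages (log2 fold change 0.47, SE 0.28). These genes are also induced by inflammatory cytokines through NF-kB.

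The factors that work beside SOXF and ETS proteins had mostly positive values. Of 20 partner factors, all tested, 17 had positive and 3 negative log2 fold changes (18 and 2 with upper-quartile factors or with library totals alone), with a median of 0.31, beside 7462 positive and 7150 negative among the 14612 genes tested. At an unadjusted p below 0.05, 5 were higher and 0 lower, beside 8.32% and 4.32% of all genes tested, and 0 passed after adjustment in edgeR. Foxc1, a forkhead factor that acts with ETS proteins at a shared motif, had 4.47 ± 0.987 FPKM in young and 8.64 ± 1.96 FPKM in aged ECs (log2 fold change 0.96, SE 0.24, edgeR adjusted p = 0.243). Gata2 had 24.3 ± 2.28 and 37.7 ± 7.92 FPKM (log2 fold change 0.64), and Hhex had 36.5 ± 8.92 and 53.8 ± 2.56 FPKM (log2 fold change 0.56). Lmo2, the bridge protein of the GATA and TAL1 complex, had 113 ± 22.9 and 172 ± 43.2 CPM (log2 fold change 0.60). All aged samples lay above all young ones in 4 of the 20 genes (Foxc1, Gata2, Hhex and Lmo2) and below them in 0, beside 9.62% and 8.33% of all genes tested. Prox1, the master gene of lymphatic ECs and a known SOX18 target, had 27.1, 34.1 and 16.1 CPM in young and 68.2, 26.3 and 159.5 CPM at 127, 131 and 136 weeks. The 131-week sample lay inside the young range, as its summed lymphatic markers did (1044 CPM, against 567 to 1496 CPM in young samples). Klf2, a gene of laminar flow and the most abundant of this list, had 746 ± 281 and 541 ± 172 FPKM and overlapped.

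Genes that answer to ERK signaling, which acts on ETS1, ETS2 and ELK3, were mixed. Of 13 genes 10 were higher and 3 lower, and their median log2 fold change was 0.35, and at an unadjusted p below 0.05 there were 3 higher and 1 lower, beside 8.32% and 4.32% of all genes tested, and 0 after adjustment. Ier3, an early response gene, had 485 ± 90.0 FPKM in young and 986 ± 243 FPKM in aged ECs (log2 fold change 1.02, SE 0.24, edgeR adjusted p = 0.235). Phlda1 had 13.7 ± 0.558 and 36.6 ± 18.1 FPKM (log2 fold change 1.42), and Spry1, a feedback inhibitor of the pathway, had 31.8 ± 6.32 and 49.7 ± 6.21 FPKM (log2 fold change 0.63). The gene lower at that level was Etv5. Dusp6, the phosphatase most used as a readout of ERK activity, overlapped with 109 ± 20.8 and 119 ± 9.57 FPKM, and so did Dusp4. Early response genes also answer to tissue digestion, and Ier3 is also on a list of 14 dissociation genes. Of these 14 genes 13 were higher, beside 7462 of the 14612 genes tested, with sums of 22827 to 26343 CPM in young and 26304 to 35349 CPM in aged samples. At an unadjusted p below 0.05, 7 were higher and 0 lower, beside 8.32% and 4.32% of all genes tested. The lower gene was Dusp1 (log2 fold change -0.41, SE 0.18), with every aged sample below every young one. The part of digestion in the values of the ERK response genes was not tested.

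**Figure D5:**
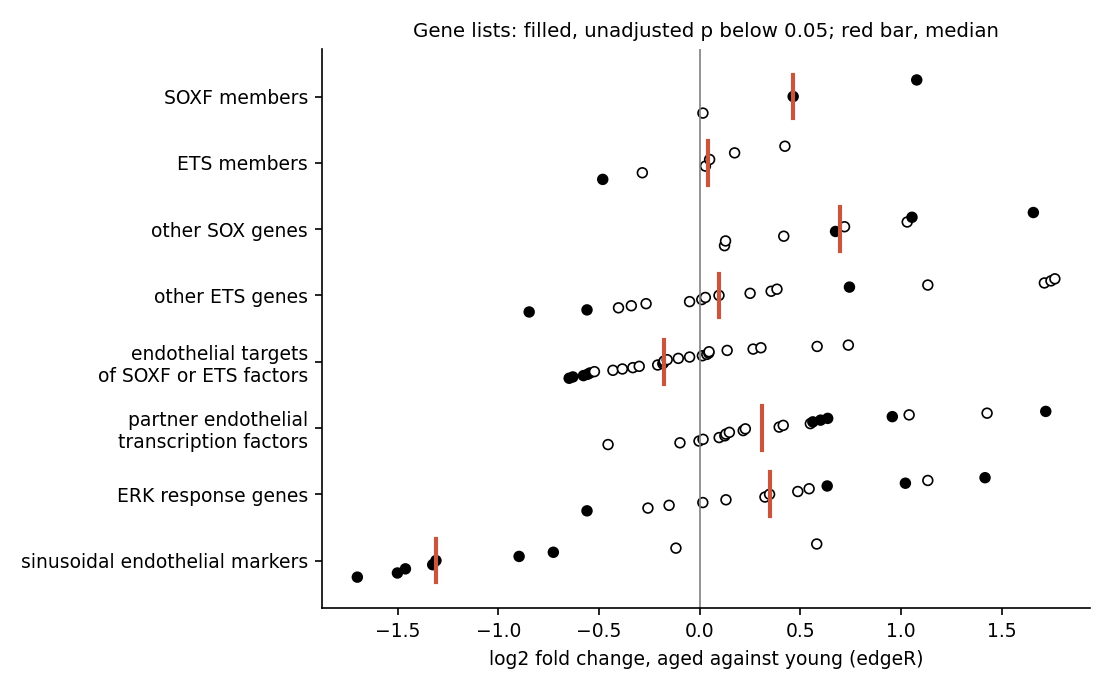
edgeR log2 fold change of aged against young (horizontal axis) for every tested gene of 8 lists. Filled points have an unadjusted p below 0.05, and the red bar is the list's median. The other SOX genes all lie to the right of 0, the target genes have their median at -0.18 with 5 filled points, all to the left, and the sinusoidal markers have their median at -1.31.

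Marker levels of other cells were set beside Sox7, Sox17 and Ets1. All 8 pan-leukocyte markers had positive log2 fold changes, and their summed level was 21.3 to 32.9 CPM in the young samples and 71.5, 21.8 and 240.9 CPM at 127, 131 and 136 weeks. The 131-week sample lay in the young range for leukocyte markers and had 335 CPM of Sox7 and 116.6 CPM of Sox17. With a term for the mean of these markers in the fit, the log2 fold change was 0.79 for Sox7 (SE 0.25), 0.34 for Sox17 (SE 0.17) and -0.32 for Ets1 (SE 0.21), and of these Sox7 alone had an unadjusted p below 0.05. What part leukocytes had in the values of Sox7, Sox17 and Ets1 was not tested. The summed sinusoidal markers did not overlap between the ages. Singly, 7 of the 9 lay below in all aged samples, and Lyve1 and Gata4 overlapped. A term for their mean log2(CPM + 1) and the term for age thus share much of their information. With the sinusoidal term the log2 fold changes were 0.58 (SE 0.52) for Sox7, 0.22 (SE 0.34) for Sox17 and 0.11 (SE 0.34) for Ets1. Of 10 markers of arteries and large vessels, 9 had positive log2 fold changes, beside 7462 of the 14612 genes tested. At an unadjusted p below 0.05, 3 were higher, beside 8.32% of all genes tested. These were Hey1 (13.2 ± 2.27 and 51.9 ± 31.3 CPM), Cxcr4 (0.498 ± 0.127 and 1.94 ± 1.43 CPM) and Bmx (39.6 ± 9.70 and 76.7 ± 12.3 CPM). Gja4 had a negative value (log2 fold change -0.77, SE 0.39) and Gja5 one of 0.04. The sums overlapped, at 3532 to 5381 CPM in young and 4563 to 5070 CPM in aged samples. Efnb2, Dll4, Cd34 and Vwf are on this list and also on the list of target genes, so the 2 lists are not independent.

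Genes whose pattern over the 6 samples was most like that of a SOXF gene were sought among 10224 genes, by the mean absolute difference of log2(CPM + 1) after each gene was centered on its own mean. For Sox7 they were Cnnm4 (0.0445), Csf2rb2 (0.0448) and Socs3 (0.0502). Socs3, the feedback inhibitor of JAK-STAT signaling, had 869, 1026 and 940 CPM in young and 1256, 1795 and 2683 CPM in aged samples, and thus followed the same order of samples as Sox7. Csf2rb2 is a near copy of Csf2rb, so its reads are uncertain. For Sox17 they were Zcchc11 (0.0291), Bcor (0.0341) and Gnl1 (0.0637), and for Sox18 Mterf4 (0.0533), Luzp1 (0.0631) and Cinp (0.0670). Bcor, a corepressor gene, had 23.6, 20.6 and 25.2 CPM in young and 31.3, 31.7 and 37.7 CPM in aged samples, again in the order of Sox17. The likeness rests on 6 samples and is given as a description.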

How the data were processed

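RNA of sorted CD31+CD45- liver cells was made into TruSeq libraries and sequenced as single reads of 75 bases. Per the study's methods and the submitters' processing notes, the authors used CASAVA 1.8.2 for base calls, TopHat2 2.1.0 for alignment to mm9 and Cuffnorm 2.2.1 for FPKM. The deposited raw counts per gene symbol and the deposited FPKM values were used as they stand, and the counting program and its strand setting are not given in the sources used here. Counts were fitted over all 14612 genes with edgeR 4.0.16 (R 4.3.3) by the quasi-likelihood test, with TMM factors of 0.963 to 1.11, and p-values were adjusted over all genes tested. FPKM served for levels between genes. The 9 members and the gene lists were chosen with earlier results of these data known. Named list genes were those with an adjusted p below 0.05 or else up to 4 with the smallest unadjusted p below 0.05, plus the 2 highest by FPKM and the first listed. Kdr, Lmo2, Spi1, Birc3, Cd34, Sox5, Sox6, Sox8, Sox11 and Sox12 were named after their values were seen. In all, 22 alternatives were run, with DESeq2 1.42.0 and limma 3.58.1 among them, of which 2 were chosen after seeing the data (without the pair poor in Lars2 and Rn45s, and with a term for sinusoidal markers). An exact permutation test of 3 against 3 samples cannot go below p = 0.1 and was not used. Gene positions are from GENCODE vM1 on mm9. The fit was tested on simulated data with 200 changed genes. No 2 samples of the same age agreed within sampling noise.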

Additional observations from a re-analysis of the deposited data

How the results depend on the processing

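Over the 22 alternatives, Sox7 (0.58 to 1.28), Sox17 (0.22 to 0.61), Ets2 (-0.47 to -0.080) and Etv6 (0.12 to 0.57) kept the sign of their log2 fold change, and Sox7 had an unadjusted p below 0.05 in 21 of 22, Sox17 in 17 and Ets1 in 13. Ets1 was reversed only with a term for sinusoidal markers (0.11). That term also gave Sox18 -0.22, Fli1 -0.44 and Elk3 -0.24. Sox18 was negative in limma on FPKM (-0.016 with either pseudocount or no filter), in limma-voom (-0.050), with a term for the library cluster (-0.012) and without the pair poor in Lars2 and Rn45s (-0.28). Elk3 was negative in limma-voom (-0.11), with a term for leukocyte markers (-0.042) and without that pair (-0.13), and Fli1 in limma-voom (-0.093) and with the leukocyte term (-0.13). Leaving out a single sample (then 2 against 3) gave -0.15 to 0.20 for Elk3, -0.12 to 0.24 for Erg, -0.15 to 0.45 for Fli1, -0.21 to 0.13 for Sox18, 0.76 to 1.28 for Sox7, 0.36 to 0.56 for Sox17 and -0.67 to -0.37 for Ets1. The number of members higher at an unadjusted p below 0.05 was 3 with library totals alone, with the stricter filter (CPM of at least 1 in at least 3 samples) and with the library cluster term, 1 with the leukocyte term, 0 with the sinusoidal term and 1 to 3 with a sample left out. The number lower was 2 in limma-voom and with the library cluster term, 0 with the leukocyte term, the sinusoidal term, upper-quartile factors or without the pair, and 0 to 1 with a sample left out. The number with an adjusted p below 0.05 was 1 in DESeq2. The cause of these changes was not tested. No paired analysis was made, because the young and aged liver samples come from different mice. Depth was not limiting for the members, each of which had at least 769 counts in every sample, whereas 3 samples per age and 1 sample at each aged time leave wide intervals.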

Other observations

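Marker lists of cells outside the endothelium that no comparison above used were read in the same fit, with 0 genes past an adjusted p of 0.05. All 7 tested hepatocyte markers had negative log2 fold changes (median -0.92), with sums of 103 to 147 CPM in young and 64.6 to 83.8 CPM in aged samples. At an unadjusted p below 0.05, 3 of them were lower, beside 4.32% of all genes tested. Stellate and mural markers were split 4 and 4, and their sums ranged from 77.1 to 335 CPM among the young samples alone. Platelet markers, 2 higher and 3 lower, summed to 18.5 to 26.9 CPM in young and 18.8 to 22.4 CPM in aged samples. T and NK cell markers summed to 0.978 to 1.79 CPM in young samples and to 0.856 to 23.6 CPM in aged samples, and B cell markers to 0.947 to 1.23 CPM and 0.739 to 8.49 CPM, with the highest sum of both at 136 weeks.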
